A study of Mus musculus with 28 samples.

Results

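The Myc and Max network was followed through 10 mouse genes: the activators Myc, Mycn and Mycl, their partner Max, and the antagonists Mxd1, Mxd3, Mxd4, Mxi1, Mnt and Mga. Members were matched on the gene symbol of the array's annotation, and every probe set given to 1 of these symbols alone was taken. That gave 27 of the 45037 probe sets fitted, and 10 of 18193 genes. Myc and Max had 1 probe set each, Mxi1 and Mnt had 2, Mycn, Mycl, Mxd1 and Mxd3 had 3, Mxd4 had 4 and Mga had 5.

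Myc proteins are transcription factors that bind DNA only as a pair with Max, mostly at the E-box CACGTG, and drive genes of ribosome production, nucleotide synthesis and growth. Mxd proteins, Mxi1, Mnt and Mga bind the same partner and compete for the same sites, and the Mxd, Mxi1 and Mnt pairs bring in Sin3 corepressors with histone deacetylases. In fibroblasts Myc is induced by serum growth factors and Ras signalling, and Mxd genes are known for their expression in cells that leave the cycle.

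Total RNA was hybridised to Affymetrix arrays from NIH3T3, an immortalised line of mouse embryonic fibroblasts, and from a line labelled NIH3T3 K-ras, called K-ras here. Cells were kept for 18 h in medium with 10% newborn calf serum and 4 mM glutamine, and 1 group of each line was taken then, at 25 mM glucose (0 h). The other groups of each line were taken 24, 48 and 72 h after a change to medium with 25 or 1 mM glucose, all with 4 mM glutamine. This made 14 groups of 2 arrays, labelled as biological replicates, and the question was how expression in each line responds to glucose. The sources used here give neither the allele that the line carries nor its promoter or the number of clones, and the line label was not checked against that gene. Every value is a log2 ratio to that probe set's own median over the 28 arrays: differences between groups can be read, levels of different genes cannot be compared, and no gene can be called absent. For the same reason the fibroblast label could not be checked by level, and in bulk RNA fewer cells with a transcript and less transcript per cell cannot be told apart.

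Before any result, 6 arrays had the expression profile of the other line when all 28 were clustered on the 500 probe sets with the largest standard deviation (SD), none of them a member. Among arrays labelled NIH3T3, these were both at 24 h and the first replicate at 48 h, all in 1 mM glucose. Among arrays labelled K-ras, they were the first replicate at 0 h and, in 1 mM glucose, the first replicates at 48 and 72 h. Their labels were kept. They were set apart in these same data by a profile that separates the lines. Leaving them out therefore favours a difference between the lines and is no independent support for one. Values from such arrays are marked, and tests, group orders and correlations that include them are also given without them; a group left with 1 array is then assumed to vary like the other groups, which supply its whole spread estimate. Replicate 1 of K-ras 25 mM 72 h stood apart in another way: its interquartile range over all probe sets was 0.65 against at most 0.45 on the other arrays, and it held the highest value of 6 and the lowest value of 4 of the 27 member probe sets. bioC, a bacterial hybridisation control spiked into the sample, was under -0.6 on 12 arrays, all labelled NIH3T3, so at 25 mM its level coincides with the line.

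Myc, the broadly expressed activator, lay lowest in NIH3T3 at 72 h in 25 mM glucose. There, replicates 1 and 2 read 0.27 and -0.14 at 0 h, 0.14 and -0.37 at 24 h, -0.62 and -0.75 at 48 h, and -1.72 and -1.56 at 72 h. The 72 h arrays were the lowest of all 28 and overlapped no other group. The log2 fold change was -1.52 ± 0.59 from 24 to 72 h (standard error, SE, here and for the other fold changes; limma adjusted p 0.147) and -1.70 ± 0.59 from 0 to 72 h (limma adjusted p 0.113), so neither passed the threshold of 0.05. Without the 6 out-of-place arrays, none of which belongs to these groups, the spread estimate was smaller: limma then gave adjusted p 0.0557 against 24 h and 0.0331 against 0 h.

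K-ras cells at 25 mM showed a narrower range of Myc. The arrays read 0.44 (an out-of-place array) and 0.38 at 0 h, 0.25 and -0.09 at 24 h, -0.27 and -0.34 at 48 h, and -0.90 and 0.21 at 72 h. The 72 h pair lay apart, and its lower value came from the array that stood apart over all probe sets. From 24 to 72 h the log2 fold change was -0.42 ± 0.59 (limma adjusted p 0.854), and its difference from that of NIH3T3 was 1.10 ± 0.83 (limma adjusted p 0.559).

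Mxd4, a Max-binding repressor of the Mxd family, moved most of the 10 genes: the SD of its probe set 1434378_a_at over the 28 arrays, 1.19, was above that of 98.7% of all probe sets, against 94% for Myc. In NIH3T3 at 25 mM the replicates read -0.91 and -0.99 at 0 h, -0.02 and -0.83 at 24 h, 2.16 and 1.42 at 48 h, and 2.21 and 3.17 at 72 h. All arrays at 48 and 72 h lay above all arrays at 0 and 24 h. From 24 to 72 h Mxd4 rose by 3.12 ± 0.60 on 1434378_a_at (limma adjusted p 0.0120), by 2.42 ± 0.48 on 1434379_at (limma adjusted p 0.0127) and by 1.95 ± 0.40 on 1422574_at (limma adjusted p 0.0155). The fourth probe set, 1422575_at, differed by 0.66 ± 0.28 (limma adjusted p 0.199). These 3 were the only member probe sets of 27 called in that comparison, in which 4.07% of all probe sets were called, 2.5% higher. From 0 to 72 h the same 3 probe sets rose, by 3.64 ± 0.60, 2.49 ± 0.48 and 1.78 ± 0.40 (limma adjusted p 0.00565, 0.0102 and 0.0213), against 4.27% called of all probe sets, 2.68% higher. The 2 comparisons share the 72 h arrays. From 0 to 24 h no member was called, against 0.00444% of all probe sets, and Mxd4 differed by 0.53 ± 0.60 on 1434378_a_at; 2271 probe sets and no member had an unadjusted p under 0.05. In K-ras limma called nothing from 0 to 24 h (0%), with 765 probe sets and no member under that unadjusted p.

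**Figure D1:**
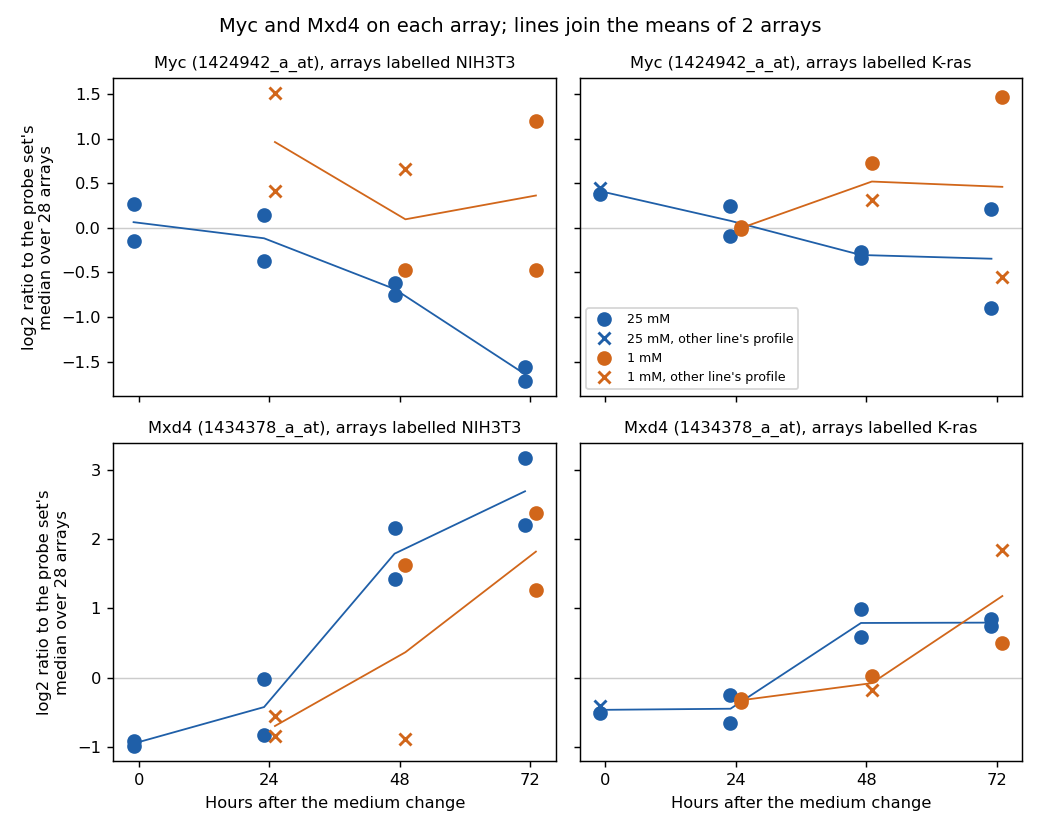
Deposited log2 ratio of Myc (top) and Mxd4 (bottom) on each array against hours after the medium change, for arrays labelled NIH3T3 (left) and K-ras (right); blue is 25 mM and orange 1 mM glucose, crosses are arrays with the profile of the other line, and lines join the means of 2 arrays. In NIH3T3 at 25 mM, Myc goes down to -1.72 and -1.56 at 72 h while Mxd4 goes up to 2.21 and 3.17.

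With 2 arrays a group, the Mxd4 calls were lost in most fits that left out 1 array. For 1434378_a_at, the 24 to 72 h fold change stayed between 2.64 and 3.60 when 1 array was left out. It kept its call without replicate 1 of NIH3T3 25 mM 24 h (limma adjusted p 0.0334), and lost it without replicate 2 of that group (0.0898) and without replicate 1 (0.105) or replicate 2 (0.115) of the 72 h group. For the change from 0 h the call was kept without replicate 1 of the 0 h group (0.0394) or of the 72 h group (0.0464), and lost without their replicates 2 (0.0612 and 0.0665). Probe set 1422574_at kept its 24 to 72 h call only without replicate 1 of NIH3T3 25 mM 24 h, and 1434379_at lost it without any 1 of the 4 arrays (adjusted p between 0.0554 and 0.118). From 0 h both lost it without any 1 array (0.0718 to 0.190 and 0.0770 to 0.0988).

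The E-box that Myc and Mxd pairs share is present in the promoter window of Mxd4, and the sequence is shown because this member changed most. Windows ran from 250 bases before to 50 bases after each annotated start (RefSeq, GRCm38.p6), and CACGTG, which reads the same on both strands, was in 7.15% of all 32851 windows. Of the 10 members, 9 had a window, 11 in all. Myc had none, so its promoter was not searched. The motif was in 3 windows: once each for Mxd4, Mnt and Max. The 250 bases before the Mxd4 start are given first, at chr5:34187711-34187960, minus strand, with the E-box in capitals. The 30 bases around the E-box of Mnt, at chr11:74830789-74830818, plus strand, and of Max, at chr12:76962234-76962263, minus strand, follow.
Mxd4: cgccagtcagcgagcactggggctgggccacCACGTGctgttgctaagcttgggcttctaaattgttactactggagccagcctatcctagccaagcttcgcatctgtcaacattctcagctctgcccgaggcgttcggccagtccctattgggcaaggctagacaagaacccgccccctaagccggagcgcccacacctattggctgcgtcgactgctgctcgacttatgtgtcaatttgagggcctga
Mnt: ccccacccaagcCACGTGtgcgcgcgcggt
Max: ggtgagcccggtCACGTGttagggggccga
The first base of the motif lies at -219 for Mxd4, -123 for Mnt and -3 for Max, counted from the start. A match is a description of these letters; no binding was measured here.

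In K-ras cells at 25 mM the later Mxd4 values were also the higher ones. On 1434378_a_at the arrays read -0.41 (an out-of-place array) and -0.52 at 0 h, -0.65 and -0.25 at 24 h, 0.99 and 0.59 at 48 h, and 0.75 and 0.84 at 72 h. The 48 and 72 h arrays lay above the earlier ones, and all 4 lay below the 4 NIH3T3 arrays of those times. The 24 to 72 h fold change was 1.24 ± 0.60 (limma adjusted p 0.524), with 1.25 ± 0.48 on 1434379_at (0.487) and 0.33 ± 0.40 on 1422574_at. No member and no other probe set was called by limma in this comparison (0%), while 4350 probe sets and 3 members had an unadjusted p under 0.05. The difference between the lines in this change was -1.87 ± 0.85 on 1434378_a_at (limma adjusted p 0.353) and -1.62 ± 0.57 on 1422574_at (0.281). A single probe set of all (0.00222%) was called for that difference, and no member, so a smaller rise in K-ras was not shown.

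At 72 h in 25 mM glucose, the Mxd4 difference of K-ras from NIH3T3 was -1.65 ± 0.40 on 1422574_at (0.02 against 1.67; limma adjusted p 0.0621) and -1.90 ± 0.60 on 1434378_a_at (limma adjusted p 0.114). On 1434379_at it was -1.17 ± 0.48, and on 1422575_at 0.12 ± 0.28, of the opposite sign. No member passed the threshold there, against 0.588% of all probe sets. Without the 6 out-of-place arrays, 3 Mxd4 probe sets were called lower in K-ras by limma: 1422574_at (adjusted p 0.00353), 1434378_a_at (0.0121) and 1434379_at (0.0409). In that fit 6.46% of all probe sets were called. The fold changes are the same, since neither 72 h group held such an array.

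**Figure D2:**
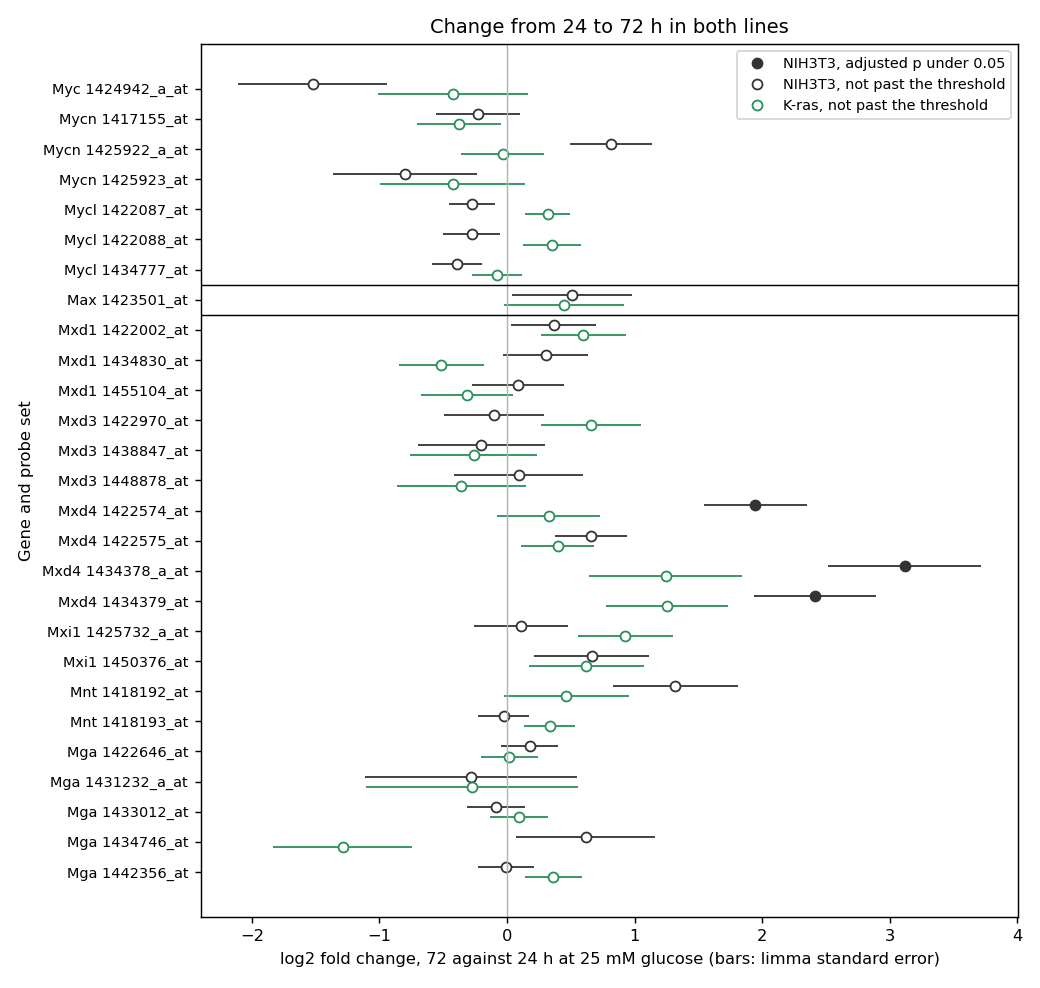
log2 fold change from 24 to 72 h at 25 mM glucose with its limma SE for the 27 member probe sets, in NIH3T3 (grey) and K-ras (green), with lines setting Max apart from the activators above and the antagonists below; filled points have an adjusted p under 0.05. Only 3 Mxd4 probe sets in NIH3T3 are filled, at 3.12, 2.42 and 1.95.

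Mnt, a Max-binding repressor present in most cells, lay higher late in NIH3T3 on 1 of its 2 probe sets. On 1418192_at the 25 mM arrays read -0.72 and -1.47 at 0 h, -0.60 and -0.76 at 24 h, 0.92 and -0.48 at 48 h, and 0.62 and 0.66 at 72 h. The 48 h arrays were far apart, and those at 72 h lay above all at 0 and 24 h. The fold change from 0 to 72 h was 1.74 ± 0.49 (limma adjusted p 0.0544), and 1.32 ± 0.49 from 24 to 72 h (0.134). Without the 6 out-of-place arrays the limma adjusted p from 0 to 72 h was 0.0234. The other Mnt probe set, 1418193_at, differed by -0.03 ± 0.20 from 24 to 72 h, and its sign turned when the arrays were quantile normalised again. In K-ras the 1418192_at values were -0.74 (an out-of-place array) and -0.76 at 0 h and 0.02 and 0.16 at 72 h. The change from 24 to 72 h was 0.47 ± 0.49.

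Mxi1, the Mxd-family repressor also known as Mxd2, lay higher late in NIH3T3 at 25 mM on 1 of its 2 probe sets. Probe set 1450376_at read -1.07 and -0.81 at 0 h, -0.23 and -0.47 at 24 h, 0.29 and -0.03 at 48 h, and 0.42 and 0.21 at 72 h. The 72 h arrays lay above all at 0 and 24 h, by 1.26 ± 0.45 against 0 h (limma adjusted p 0.130; 0.0139 without the 6 out-of-place arrays) and 0.66 ± 0.45 against 24 h (0.436). In K-ras it read 0.01 and -0.26 at 24 h and 0.66 and 0.34 at 72 h, a difference of 0.62 ± 0.45. The other Mxi1 probe set, 1425732_a_at, differed in NIH3T3 by 0.36 ± 0.37 from 0 to 72 h (limma adjusted p 0.698) and 0.11 ± 0.37 from 24 to 72 h (0.905). In K-ras its 24 to 72 h difference was 0.93 ± 0.37 (0.487), so this probe set had the larger value in K-ras.

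Among the 27 member probe sets, 18 had arrays that did not overlap between 24 and 72 h in NIH3T3, where 56.2% of all probe sets did not overlap, so that share is near the background. With the 6 out-of-place arrays left out, 6 member probe sets were called by limma from 0 to 72 h, against 7.96% of all: Mxd4 on 3, Mnt and Mxi1 higher, and Myc lower. By role, 6 of 7 activator probe sets were negative from 24 to 72 h, with a median of -0.28, and 13 of 19 antagonist probe sets were positive, with a median of 0.18, beside a median of -0.10 over all probe sets. In K-ras, 5 of 7 activator probe sets were negative (median -0.08) and 13 of 19 antagonist probe sets positive (median 0.33), beside 0.02 over all. Quantile normalisation again turned the sign of 3 small antagonist values in NIH3T3 and of 1 activator and 1 antagonist value in K-ras.

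The distance between Myc and Mxd4, taken as the Myc ratio minus the Mxd4 ratio on the same array, shows both courses together. In NIH3T3 at 25 mM it was 1.18 and 0.85 at 0 h, 0.16 and 0.46 at 24 h, -2.78 and -2.17 at 48 h, and -3.93 and -4.73 at 72 h. Each NIH3T3 array at 48 and 72 h lay below each K-ras array of those times, which read -1.25 and -0.93 at 48 h and -1.65 and -0.63 at 72 h. At 0 and 24 h the K-ras arrays, including the out-of-place array at 0 h, lay between 0.16 and 0.90, within the NIH3T3 values. This is a difference of ratios, each to its own median, and says nothing of which transcript is more abundant.

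**Figure D3:**
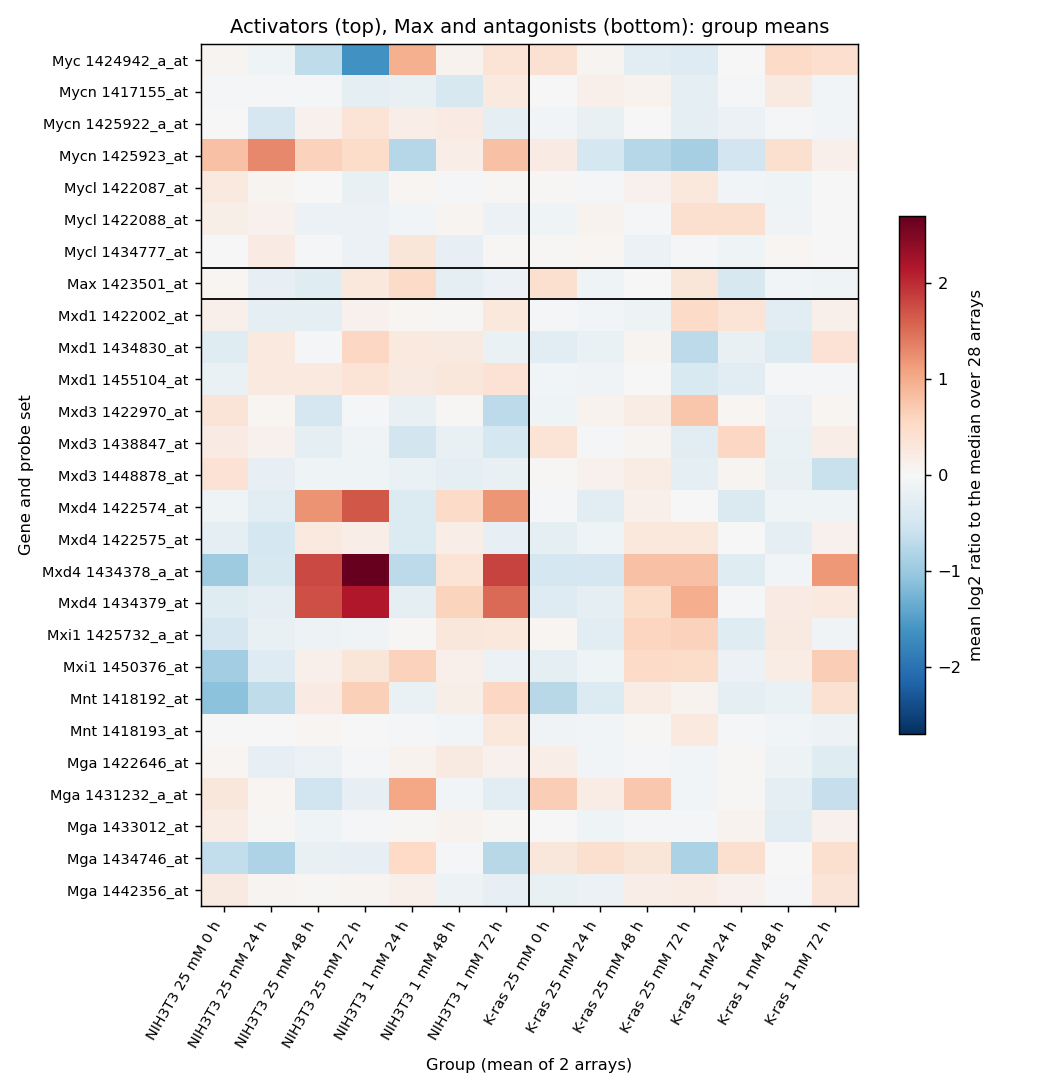
Mean log2 ratio to the median over 28 arrays (colour, red above and blue below) for the 27 member probe sets (vertical axis, activators on top, Max between the lines, antagonists at the bottom) in the 14 groups of 2 arrays (horizontal axis). The highest mean is Mxd4 on 1434378_a_at, 2.69 in NIH3T3 at 72 h in 25 mM glucose, and the lowest is Myc in the same group, -1.64.

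Mycn, the activator best known from neural tissue and neuroblastoma, separated the lines on 1 of its 3 probe sets. On 1425923_at the 8 NIH3T3 arrays at 25 mM lay between 0.35 and 1.59, and 7 of the 8 K-ras arrays lay between -0.94 and -0.46. The eighth, the out-of-place array at 0 h, read 0.96. The fit without it therefore favours a difference between the lines and is no independent support for one. Averaged over the 4 times, K-ras was lower, with a difference of -1.28 ± 0.28 (-0.48 against 0.80; limma adjusted p 0.0113), or -1.46 ± 0.18 without the out-of-place arrays (limma adjusted p 8.51e-05). The call held with any 1 array left out, between -1.46 and -1.09. The other Mycn probe sets differed by 0.10 ± 0.17 (1417155_at) and -0.14 ± 0.16 (1425922_a_at), and neither was called.

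Every out-of-place array read Mycn like the other line. The 3 labelled NIH3T3, all at 1 mM, read -1.03, -0.51 and -0.32, below every other NIH3T3 array, the lowest of which was 0.20. The 3 labelled K-ras read 0.96, 1.20 and 0.88, above every other K-ras array, the highest of which was -0.23. These values are a description, since the arrays were set apart by their profile.

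**Figure D4:**
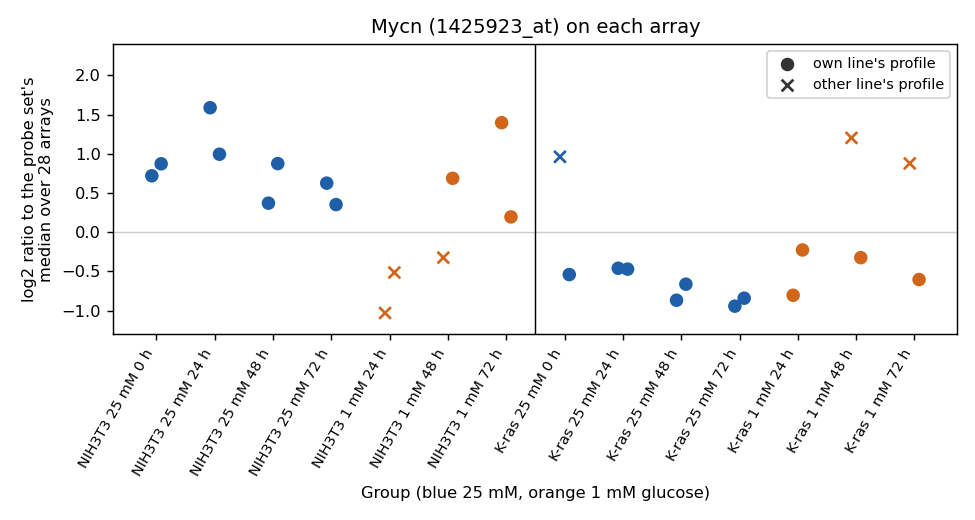
log2 ratio of Mycn (1425923_at) to its median over 28 arrays, on each of the 2 arrays of the 14 groups, arrays labelled NIH3T3 left and K-ras right of the line; blue is 25 mM and orange 1 mM glucose, and crosses are arrays with the profile of the other line. The circles of NIH3T3 lie at or above 0.20 and those of K-ras at or below -0.23, and each cross lies on the other line's side.

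Averaged over times at 25 mM, 2 member probe sets were called, against 8.17% of all probe sets (4.01% lower). Both were lower in K-ras: Mycn on 1425923_at, and Mxd4 on 1422574_at with a difference of -0.68 ± 0.20 (limma adjusted p 0.0481). The other Mxd4 probe sets differed by -0.61 ± 0.30 (1434378_a_at), -0.62 ± 0.24 (1434379_at) and 0.13 ± 0.14 (1422575_at), and none of them was called. The Mxd4 call was lost with almost any 1 array left out: 14 of 16 such fits gave an adjusted p between 0.0573 and 0.119, while it stayed without NIH3T3 25 mM 24 h replicate 2 (0.0412) or NIH3T3 25 mM 48 h replicate 2 (0.0299). Without the 6 out-of-place arrays it held (0.00646), and 1434379_at was called too (-0.63 ± 0.17, 0.0211); 13.6% of all probe sets were then called. With the bioC level as a block, the differences were -1.37 for Mycn (limma adjusted p 0.955) and -0.10 for Mxd4 (0.985), and no probe set was called. At 25 mM that level coincides with the line, so arrays at 1 mM alone inform this block. The lack of calls was therefore largely set by the design. Myc was higher in K-ras by 0.56 ± 0.29 (-0.04 against -0.59; limma adjusted p 0.298), and did not pass.

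At single times in 25 mM no member was called between the lines, against 0.00222% of all probe sets at 0 h, 0.0111% at 24 h and 0.00888% at 48 h. The differences in Mycn on 1425923_at were -0.59 ± 0.57 at 0 h (-1.34 ± 0.41 without its out-of-place array, limma adjusted p 0.204), -1.76 ± 0.57 at 24 h (limma adjusted p 0.201), -1.39 ± 0.57 at 48 h (0.446) and -1.38 ± 0.57 at 72 h (0.199). Without the out-of-place arrays the last 3 were called by limma (adjusted p 0.0107, 0.0390 and 0.0276), against 3.79%, 3.66% and 6.46% of all probe sets.

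Mycl, the third activator, varied little: its 3 probe sets had SDs of 0.18, 0.25 and 0.20 over the 28 arrays, below the median of 0.27 for all probe sets. Max, the partner shared by both sides of the network, ranged from -0.79 to 1.10 on its probe set. The low end was an out-of-place array, replicate 1 of K-ras 1 mM 72 h, whose other replicate read 0.54. The high end was the array that stood apart, replicate 1 of K-ras 25 mM 72 h, whose other replicate read -0.45. The spread of Max within groups, 0.51, was larger than that of its group means, 0.29. Max differed by 0.51 ± 0.47 from 24 to 72 h in NIH3T3 (limma adjusted p 0.589) and by 0.44 ± 0.47 in K-ras (0.793), and was called in no comparison.

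Mxd1, the founding member of the Mxd family, read 0.78 and 0.35 on 1434830_at in NIH3T3 at 72 h in 25 mM glucose, and -1.40 and 0.00 in K-ras. The groups did not overlap, the difference was -1.27 ± 0.33 (limma adjusted p 0.0750), and the value of -1.40 came from the array that stood apart. Without that array, replicate 1 of K-ras 25 mM 72 h, no member was called between the lines at that time. Without its replicate 2, which leaves only the array that stood apart, limma called 4, among 6226 of all probe sets; with 1 K-ras array, all of the spread estimate comes from the other groups. These were Mxd1 lower on 1434830_at (-1.97 ± 0.29, adjusted p 0.000370) but higher on 1422002_at (1.16 ± 0.27, 0.00878), Mycl higher on 1422088_at (0.94 ± 0.24, 0.0145) and Mxd4 lower on 1422574_at (-1.59 ± 0.51, 0.0480). Mxd3, the family member tied to DNA synthesis phase, was called in no comparison on any of its 3 probe sets. Mga, a large Max-binding protein that also carries a T-box, was not called on any of its 5 probe sets with all arrays in. On 1431232_a_at its spread within groups, 0.91, exceeded that of its group means, 0.48. On 1434746_at it differed from 24 to 72 h at 25 mM by -1.29 ± 0.54 in K-ras (limma adjusted p 0.491) and 0.62 ± 0.54 in NIH3T3 (0.568). The lowest value of that probe set, -1.70, was on the array that stood apart.

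In 1 mM glucose, Myc was higher on average than in 25 mM, but the arrays scattered and no call was made. Over both lines and the times 24, 48 and 72 h the difference was 0.90 ± 0.24 (0.40 against -0.50), with an unadjusted p of 0.00149 and a limma adjusted p of 0.992. No probe set passed in that comparison (0%), and 2243 of all probe sets and 2 members had an unadjusted p under 0.05. The fit without the 6 out-of-place arrays averages 10 groups, since NIH3T3 at 24 h has no 1 mM array left and drops out. Without the 6 out-of-place arrays the difference was 1.00 ± 0.23 (limma adjusted p 0.109), and no member was among the 0.224% of probe sets called.

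The separate Myc values at 1 mM were as follows. In NIH3T3 they were 1.51 and 0.41 at 24 h, both on out-of-place arrays, 0.66 (out of place) and -0.47 at 48 h, and -0.48 and 1.20 at 72 h. In K-ras they were -0.01 and 0.01 at 24 h, 0.31 (out of place) and 0.73 at 48 h, and -0.55 (out of place) and 1.47 at 72 h. The replicates at 72 h lay far apart in both lines, with an SD of 1.19 in NIH3T3 and 1.43 in K-ras. Against 25 mM at 72 h in NIH3T3, where both 1 mM arrays lay above both 25 mM arrays, the difference was 2.0 ± 0.59 (limma adjusted p 0.503; 0.00666% of all probe sets called). In that comparison 12 of 27 member probe sets did not overlap, against 40.6% of all.

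Other glucose differences in Myc were 0.78 ± 0.59 at 48 h in NIH3T3, and -0.08 ± 0.59, 0.82 ± 0.59 and 0.81 ± 0.59 at 24, 48 and 72 h in K-ras. In these 4 comparisons limma called 0%, 0%, 0% and 0.0488% of all probe sets and no member; 759, 412, 1960 and 6261 probe sets had an unadjusted p under 0.05, and 2, 0, 1 and 2 members. Without the out-of-place arrays, each of which leaves 1 array in its group, the 48 h difference was 0.21 ± 0.54 in NIH3T3 and 1.03 ± 0.54 in K-ras (limma adjusted p 1.00 in both). The 72 h difference in K-ras, then resting on the value of 1.47, was 1.81 ± 0.54 (limma adjusted p 0.103).

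Ordered by group mean, Myc was highest in NIH3T3 1 mM 24 h (0.96 ± 0.78, SD, n = 2), both of whose arrays are out of place, and lowest in NIH3T3 25 mM 72 h (-1.64 ± 0.11), followed by NIH3T3 25 mM 48 h (-0.69 ± 0.10). The other 11 group means lay between -0.35 and 0.52. Apart from the lowest group, each group overlapped its neighbour in this order. With those arrays left out that group has no value, and the highest were the K-ras groups in 1 mM glucose at 72 h (1.47) and 48 h (0.73), with 1 array each; the lowest group stayed the same. Mxd4 on 1434378_a_at was highest in NIH3T3 25 mM 72 h (2.69 ± 0.68), then in NIH3T3 1 mM 72 h (1.82 ± 0.78), NIH3T3 25 mM 48 h (1.79 ± 0.52) and K-ras 1 mM 72 h (1.18 ± 0.95), which includes an out-of-place array. Each of these overlapped its neighbour in the order. The lowest was NIH3T3 25 mM 0 h (-0.95 ± 0.06). With those arrays left out the first 3 and the lowest were the same, the fourth was NIH3T3 1 mM 48 h (1.62, 1 array), and K-ras 1 mM 72 h read 0.51 on its 1 array.

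For Mxd4 in 1 mM glucose, NIH3T3 arrays read -0.55 and -0.85 at 24 h (both out of place), -0.89 (out of place) and 1.62 at 48 h, and 1.27 and 2.37 at 72 h. K-ras arrays read -0.30 and -0.35 at 24 h, -0.18 (out of place) and 0.02 at 48 h, and 1.85 (out of place) and 0.51 at 72 h. On this probe set both K-ras 72 h arrays lay above all earlier ones. In NIH3T3 the higher 48 h array lay between the 72 h arrays. Without the out-of-place arrays, the glucose difference over lines and times leaves out NIH3T3 at 24 h. The glucose difference over lines and times was -0.49 ± 0.24 (0.38 against 0.87; limma adjusted p 1.00), and -0.40 ± 0.20 without the out-of-place arrays (0.658). From 24 to 72 h in K-ras at 1 mM the difference was 1.5 ± 0.60 (limma adjusted p 0.579; 0% of all probe sets called), or 0.83 ± 0.49 without the out-of-place array. On the other Mxd4 probe sets it was 0.29 ± 0.48 (1434379_at), 0.28 ± 0.40 (1422574_at) and 0.10 ± 0.28 (1422575_at), and the arrays of the 2 times overlapped on all 3. Between the lines at 72 h in 1 mM glucose, the Mxd4 difference of K-ras from NIH3T3 was -1.31 ± 0.40 on 1422574_at (limma adjusted p 0.186). On 1434378_a_at it was -0.64 ± 0.60, on 1434379_at -1.28 ± 0.48, and on 1422575_at 0.35 ± 0.28, of the opposite sign. No member was called, against 0.0333% of all probe sets. Without the out-of-place array, which leaves 1 K-ras array whose spread is taken wholly from the other groups, limma called 4 member probe sets against 5.46% of all. Lower in K-ras were Mxd4 on 1422574_at (-1.92 ± 0.35, adjusted p 0.00546) and 1434379_at (-1.81 ± 0.38, 0.0143), and higher were Mxi1 (1.45 ± 0.33, 0.0210) and Mga on 1442356_at (0.98 ± 0.22, 0.0201).

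Txnip, a glucose-responsive gene driven by the Mlx arm of the wider network, was lower on the array with higher Myc in 5 of 6 groups at 1 mM and in 6 of 8 at 25 mM. Over the groups with no out-of-place array this held in 1 of 2 and in 5 of 7. How often other genes did so is not given here, so these counts are a description. At 72 h in 1 mM glucose its ratios were 1.31 and -1.22 in NIH3T3, where Myc read -0.48 and 1.20, and -0.20 (out of place) and -2.49 in K-ras, where Myc read -0.55 and 1.47.

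Listed genes that Myc is known to induce fell late in NIH3T3. Of 42 measured members, 20 fell and none rose from 24 to 72 h at 25 mM, with a median of -1.52 beside -0.10 over all genes, of which 5.41% were called and 1.81% were called lower. The largest falls were in Tfrc, the transferrin receptor (-3.07 ± 0.67), Odc1, the rate-limiting enzyme of polyamine synthesis (-2.75 ± 0.63), Ppat, which starts purine synthesis (-2.60 ± 0.52), and Nop16, a nucleolar protein (-2.47 ± 0.48; limma adjusted p 0.0197, 0.0240, 0.0129 and 0.0122). In all, 39 of 42 values were negative, or 40 after quantile normalisation again. The count was 26 without the 6 out-of-place arrays, against 9.86% of all genes. With 1 array left out it was 4 without replicate 1 and 5 without replicate 2 of NIH3T3 25 mM 24 h, and 1 without replicate 1 and 2 without replicate 2 of the 72 h group. The median then stayed between -1.64 and -1.23. From 0 to 72 h 18 of 42 fell, with a median of -1.54, against 5.23% of all genes called, 1.74% lower. Left-out arrays took that count to 5 (replicate 1 of 0 h), 1 (replicate 2 of 0 h), 1 (replicate 1 of 72 h) and 3 (replicate 2 of 72 h). The list was chosen with earlier results of these arrays known and is no independent evidence of its direction.

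Of 8 listed fibroblast markers, 2 rose in the same comparison and none fell; their part in these results was not tested. Pdgfra and Pdgfrb, the platelet-derived growth factor receptors, rose by 3.16 and 3.22, and the mean ratio of all 8 was 0.90 to 1.06 at 72 h against -0.98 to -0.71 at 24 h. None of 3 leukocyte, 4 epithelial and 3 endothelial markers was called with all arrays in; their mean ratios at 72 and 24 h were -0.11 to -0.09 against 0.16 to 0.26, 0.28 to 0.59 against -0.06 to 0.04, and -0.20 to -0.12 against 0.03 to 0.41.

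Listed cofactors that work with Myc fell in part: 3 of 9 were called lower from 24 to 72 h in NIH3T3 and none higher. These were the ATPases Ruvbl2 (-1.64 ± 0.30) and Ruvbl1 (-1.10 ± 0.27) and the histone methylation subunit Wdr5 (-1.07 ± 0.24; limma adjusted p 0.0101, 0.0301 and 0.0208). Of 16 genes known to be repressed by Myc, Gas1, a growth-arrest gene, rose by 3.22 ± 0.62 (limma adjusted p 0.0122) and the list's median was 0.07; of all genes, 3.61% were called higher. From 0 to 72 h Gas1 (3.54 ± 0.62) and Cebpd (1.91 ± 0.47) rose, against 3.49% of all genes called higher. The repressed list went both ways there. Thbs1 (-3.91 ± 1.23) and Gadd45b (-1.99 ± 0.59) were lower and not called (limma adjusted p 0.0836 and 0.0641). The Gas1 call from 24 h held only without replicate 1 of the 24 h group. Of the cofactors, 2 were called without replicate 2 of that group, and none without its replicate 1 or without either 72 h array. With all arrays in, no gene among 3 of the Mlx arm, 7 corepressors and 11 genes of Myc turnover was called in NIH3T3 from 24 or 0 to 72 h.

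**Figure D5:**
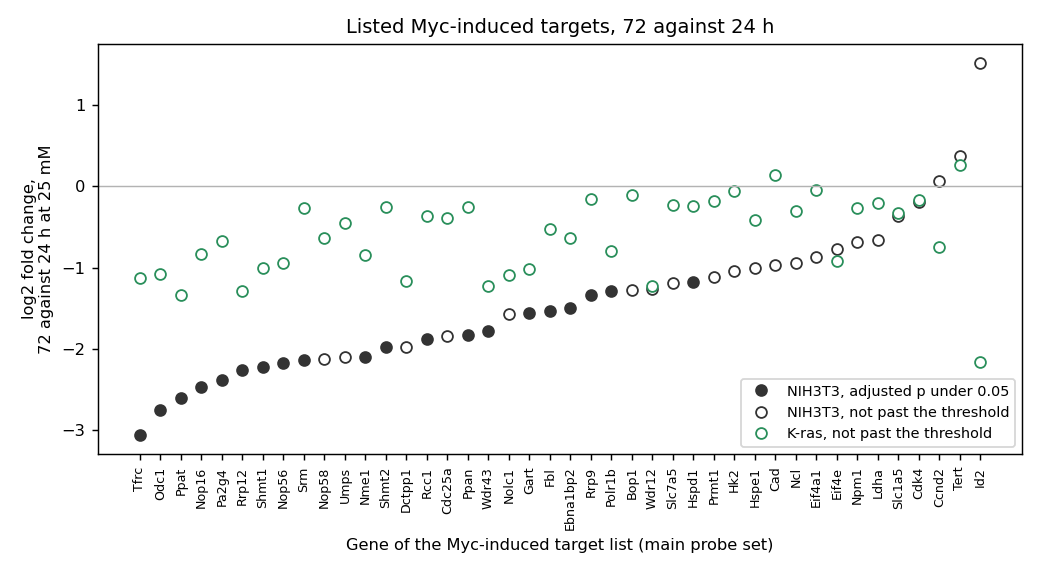
log2 fold change from 24 to 72 h at 25 mM glucose for the 42 measured genes of the Myc-induced list (horizontal axis, ordered by the value in NIH3T3), in NIH3T3 (grey) and K-ras (green); filled points have a limma adjusted p under 0.05. In NIH3T3 20 are filled, all below 0, from Tfrc at -3.07; none is filled in K-ras, where 40 of 42 are below 0.

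In K-ras none of the 42 induced genes was called from 24 to 72 h, as for all genes (0%), although 40 of 42 values were negative, with a median of -0.49 beside 0.02 over all genes. At 72 h in 25 mM glucose 36 of 42 were positive in K-ras against NIH3T3 (median 0.75) and 1 was called higher, Srm, the spermidine synthase (1.25 ± 0.26; limma adjusted p 0.0436), against 0.72% of all genes, 0.313% higher. There, 6 induced genes were called higher and 1 lower without the out-of-place arrays, against 8.54% of all genes. Ruvbl1 (1.40 ± 0.27) and Ruvbl2 (1.52 ± 0.30) were also higher in K-ras there. All 3 calls were lost after quantile normalisation again, without replicate 1 or replicate 2 of NIH3T3 25 mM 72 h, and without replicate 1 of K-ras 25 mM 72 h.

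Averaged over times at 25 mM, calls in the lists went both ways, against 10.5% of all genes, 5.33% higher and 5.22% lower. Higher in K-ras were the cofactors Trrap (0.72 ± 0.18), Ruvbl1 (0.65 ± 0.13) and Ruvbl2 (0.62 ± 0.15). So were Skp2, a ubiquitin ligase subunit of the Myc turnover list (1.21 ± 0.33), the methyltransferase Prmt1 (0.77 ± 0.21) and Tgfb1 (1.28 ± 0.27). Lower were Pim1, a kinase of the turnover list (-0.79 ± 0.23), the amino acid transporter Slc7a5 (-1.15 ± 0.26), Ndrg4 (-2.05 ± 0.56) and Klf6 (-1.17 ± 0.35). With 1 array left out, 1 to 4 cofactors, 0 to 3 induced genes and 1 repressed gene were called higher, and 1 to 2 induced and 0 to 2 repressed genes lower. The fewest cofactors were called without K-ras 25 mM 0 h replicate 2. Counts for the turnover list in these fits are not given here. None of these genes was called with the bioC level as a block, where the lack of calls was again largely set by the design. With the 6 arrays left out, 4 cofactors, 3 induced genes and 1 repressed gene were higher and 2 induced and 3 repressed genes lower, against 17.5% of all genes. Cell type markers differed in the same comparison, and their part in the line differences of Mycn, Mxd4 and these lists was not tested. Of 4 epithelial markers 2 were lower in K-ras, the cell adhesion proteins Cdh1 (-1.03 ± 0.29; limma adjusted p 0.0376) and Epcam (-0.34 ± 0.09; 0.0260), and the list's mean ratio was -0.14 to 0.39 in K-ras and -0.09 to 0.74 in NIH3T3. Of 8 fibroblast markers Pdgfra was higher (1.57 ± 0.40; limma adjusted p 0.0222), and the list's mean ratio was -0.45 to 0.755 against -0.98 to 1.06. No leukocyte or endothelial marker was called. These 3 calls held without the out-of-place arrays, where Krt8, Thy1 and Col1a1 were also called. In the glucose comparison over lines and times none of the 42 induced genes was called. Of these, 36 were positive at 1 mM, with a median of 0.19 beside -0.0013 over all genes. The same comparison without the out-of-place arrays leaves out NIH3T3 at 24 h. None was called without the out-of-place arrays either, against 0.335% of all genes, and 37 were positive.

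The genes most like Myc were chosen by their correlation across the 14 arrays of each line, taking the smaller of the 2 values, over 10419 genes with an SD above the median. They were Nop14 (r = 0.905 in NIH3T3 and 0.904 in K-ras), Snhg17 (0.915 and 0.886), Atf6 (0.88 and 0.883), Snhg16 (0.952 and 0.872) and Polr3e (0.857 and 0.874). The most opposed were Sdha (-0.873 and -0.815), Peg3, Limk1, Pxmp4 and H2az2. For Mxd4 they were Ap3s1 (0.96 and 0.924), Reck, Map1lc3b, Trp53inp2 and Slc37a3, and the most opposed were Plaur (-0.936 and -0.887), Pmepa1, Nop2, Nsun2 and Grwd1. Myc and Mxd4 themselves correlated at -0.548 and -0.391, and Mnt and Mxd4 at 0.735 and 0.626. Without the out-of-place arrays, over 11 arrays a line, the 5 genes most like Myc had r between 0.797 and 0.944, Sdha -0.869 and -0.804, Ap3s1 0.96 and 0.865, and Plaur -0.954 and -0.927. Myc and Mxd4 then correlated at -0.394 and -0.205, and Mnt and Mxd4 at 0.9 and 0.733. The arrays of a line share times and glucose, so these values describe a likeness over these arrays.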

How the data were processed

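Total RNA was extracted with Trizol, purified with RNeasy and labelled by the one-cycle method, per the labels' protocols. The submitters' processing notes name RMA, and neither its version nor its settings is given in the sources used here. Deposited were log2 values for 45101 probe sets on 28 arrays, and for each probe set the median of the linear values is 1 within 0.001, so the values are ratios with no absolute level. Arrays give no read depth, and 2 arrays a group limit the precision.

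The 64 control probe sets were left out and limma 3.58.1 (R 4.3.3) was fitted to the other 45037 with 1 mean for each of 14 groups (lmFit and eBayes, with 14 residual degrees of freedom). Benjamini-Hochberg adjustment of p-values ran within each comparison over all 45037, and a call is an adjusted p under 0.05. They measure the spread between these samples, labelled biological replicates, and many comparisons share arrays. Genes were named from GEO's platform annotation, in which 34945 probe sets carry 1 symbol; for lists, a gene was read from whichever of its probe sets had the largest SD.

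The members and all lists (Myc-induced and Myc-repressed targets, cofactors, corepressors, the Mlx arm, Myc turnover and cell type markers) were chosen with earlier results of these data known. All 10 members were named with every probe set. Of each list, the called genes were named, up to 4 a comparison by size of change, with Thbs1 and Gadd45b added as uncalled genes. For likeness, the 5 genes most alike and most opposed were named. 6 listed genes were not analysed here.

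The fit was tested on simulated data with 100 probe sets changed by 1 and 100 by 2 log2 units. It recovered 32% and 82% of them for NIH3T3 at 72 against 24 h, 84% and 97% for the lines over times, and 90% and 99% for glucose over lines and times. False calls in these comparisons were 11 of 125, 7 of 188 and 4 of 193, in that order. Alternatives were a replicate block, the bioC level as a block, quantile normalisation again, probe sets with an SD above the median, 1 probe set a gene, no out-of-place arrays, only the compared arrays, and each array left out in turn. Promoter windows were read from RefSeq tables with Python 3.11.15, and plots were drawn with matplotlib 3.10.9.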

Additional observations from a re-analysis of the deposited data

Results flagged for a closer look

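Mxd1 on 1434830_at moved in opposite directions in the lines in 3 contrasts, with both arrays of each group on the same side. From 25 to 1 mM glucose at 48 h it differed by 0.26 in NIH3T3 and by -0.43 in K-ras. At 72 h the same contrast was -0.74 in NIH3T3 and 1.08 in K-ras, where the 25 mM group holds the array that stood apart. From 24 to 48 h at 25 mM it was -0.29 in NIH3T3 and 0.25 in K-ras. The first 2 contrasts include out-of-place arrays: replicate 1 at 48 h in 1 mM glucose of both lines, and replicate 1 of K-ras at 72 h in 1 mM glucose. Without them, with 1 array left in each such group, the 48 h values were 0.29 in NIH3T3 and -0.30 in K-ras, and the 72 h value in K-ras was 1.13. The difference between the lines was not tested in any of the 3.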

How the results depend on the processing

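Over 19 comparisons, 119 of 133 alternative fits kept the number of member probe sets called within 1.5 times, 11 gave more calls and 3 fewer; of 112 fits with 1 array left out, 88 kept it, 5 gave more and 19 fewer. Most of these comparisons had no member call with all arrays in, and a count staying at 0 was taken as kept. These shares therefore say little about how well the calls held. No called member changed sign. The K-ras against NIH3T3 difference over times, with 2 calls, had 0 with the bioC level as a block, 1 with 1 probe set a gene and 5 with only the compared arrays. NIH3T3 at 72 against 24 h, with 3 calls, had 1 with 1 probe set a gene and 5 with only the compared arrays; at 72 against 0 h, also 3, there were 6 without the 6 out-of-place arrays and 7 with only the compared arrays. Comparisons without a call gained some between the lines. At 72 h in 25 mM there was 1 call with an SD filter, 4 without the out-of-place arrays and 1 with only the compared arrays. At 24 h there was 1 in each of the last 2 fits, and without the out-of-place arrays 2 at 48 h and 4 at 72 h in 1 mM. With 1 probe set a gene, fewer probe sets are tested; otherwise the cause was not tested.

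With 1 array left out, the counts ranged from 0 to 2 (NIH3T3, 72 against 24 h), 0 to 1 (72 against 0 h), 1 to 2 (lines over times), 0 to 4 (lines at 72 h in 25 mM), 0 to 2 (lines at 72 h in 1 mM), 0 to 3 (K-ras, 72 against 24 h), 0 to 2 (its difference from NIH3T3) and 0 to 4 (glucose in K-ras at 72 h). The last 3 and the 72 h line difference reached their highest count without K-ras 25 mM 72 h replicate 2. Over all probe sets, NIH3T3 at 72 against 24 h gave 1834 calls, 3270 without the out-of-place arrays, 6291 with only the compared arrays, 620 after quantile normalisation again and 8 to 681 with 1 array left out; the lines at 72 h gave 265, and 2911, 738, 3 and 1 to 6226.

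Same-numbered arrays did not deviate together: over 91 pairs of groups the correlation of deviations ran from -0.619 to 0.631, with a median of -0.0234. A replicate block kept all calls in members, with 3, 3 and 2 calls in the comparisons that had any, and Mxd4 on 1434378_a_at at a limma adjusted p of 0.0172 from 24 to 72 h.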
